A study of Mus musculus with 4 samples.

Results

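The MYC, MAX and MXD network comprised 10 genes, taken by name as Myc, Mycn, Mycl, Max, Mxd1, Mxd3, Mxd4, Mxi1, Mnt and Mga, of 54532 genes in the table. All 10 passed the filter on low counts and were among the 14056 genes tested. The material was RNA of EpSCs (epidermal stem cells), progenitors that renew the keratinocytes of the epidermis, taken from C57BL/6 mouse skin and kept in EpiLife medium with HKGS supplement. The ALP group received 30 μg/mL ALP, which stands here for the polysaccharide of Arctium lappa L. (burdock) in the series title, and the Control group 0.06% DMSO, each for 48 h and with 2 libraries. Whether ALP cultures also received DMSO is not in the labels. Neither do the labels name separate cultures or animals behind the libraries, and the p-values therefore cover the spread between these samples alone, which may be technical. The comparison asks how the mRNAs of the network differed after ALP, whose action on the proliferation of these cells is the subject of the title.

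The network is a set of basic helix-loop-helix leucine zipper proteins that share MAX as a partner. MYC, MYCN and MYCL pair with MAX on E-box DNA (CACGTG) and activate genes of ribosome production, metabolism and cell division, whereas MXD proteins, MXI1 and MNT pair with MAX on the same sites and bring in the SIN3 histone deacetylase complex. MGA pairs with MAX in the polycomb complex PRC1.6, which keeps germline genes silent. In mouse epidermis MYC is known for driving basal cells to divide and leave the stem cell compartment, and MXD1 for its appearance in differentiating layers above the basal cells.

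Total gene counts were 17430345 and 15766244 in ALP replicates A and B, against 17415047 and 17360445 in Control replicates A and B, where letters only name the libraries. The ALP libraries differed from each other more than the Control libraries did, with a chi-square per degree of freedom of 22.4 in the ALP pair and 5.92 in the Control pair, against 53.6 to 147 across groups. All 10 markers of the labelled cell type, keratinocytes, were present, with summed levels of 43923 and 35841 CPM (counts per 1000000, scaled by TMM) in ALP libraries and 59352 and 58924 CPM in Controls. Of these 10, 2 were higher and 4 lower in ALP by edgeR (adjusted p under 0.05), and Krt15, a keratin of basal stem cells that did not pass, had 58.4 and 1.75 CPM in ALP libraries, against 251 and 201 CPM in Controls. Summed levels of 8 fibroblast markers (Lum at 0) were 7.31 to 10.6 CPM in ALP and 16.3 to 19.5 CPM in Control libraries, those of 6 immune markers (Cd3e and Cd207 at 0) 5.50 to 7.12 CPM in ALP and 9.51 to 10.2 CPM in Control libraries. Summed levels of 6 melanocyte markers were 54.2 to 66.2 CPM in ALP and 57.7 to 62.7 CPM in Control libraries, and those of 5 endothelial markers 14.8 to 25.2 CPM in ALP and 6.85 to 8.05 CPM in Control libraries. Of the endothelial markers Kdr and Pecam1 were higher and Tek was lower by edgeR (adjusted p under 0.05), and of the fibroblast markers Dcn alone was lower. No melanocyte or immune marker passed. The part of all these markers in the results was not tested.

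After ALP, Myc mRNA was higher and the mRNAs of 4 of the 5 MXD and MNT repressors were lower, while Max, the shared partner, and Mga did not pass the test, at 112% and 97.3% of their Control means in CPM. Myc reached 182% of its Control mean, and Mxd4, the repressor with the highest Control level, was at 35.3% of it. By edgeR's quasi-likelihood test with Benjamini-Hochberg adjustment over all tested genes, 5 of the 10 members passed an adjusted p under 0.05, beside 30.9% of all tested genes. Of these, 1 (Myc) was higher, beside 18.0% of all tested genes, and 4 (Mxd4, Mxi1, Mnt and Mxd1) were lower, beside 12.9%. The ALP and Control libraries did not overlap in 9 of the 10 members, beside 75.7% of all tested genes. The median log2 fold change of the 10 members was -0.65, and that of the 5 MXD and MNT genes -0.92, against a median of -0.00 over all tested genes. These calls used all 4 libraries, and leaving out either Control library removed edgeR's calls across the whole table, members included. Testing every gene without the filter on low counts also left 0 of 25280 genes called by edgeR. There 6 members and 7068 genes in all had an unadjusted p under 0.05. DESeq2, given all genes, called the 5 members and 4119 genes in all. By default it leaves genes of low mean count out of its adjustment, Smc1b and Ddx4 among them. Its count is therefore not like for like with that of edgeR without a filter.

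**Figure D1:**
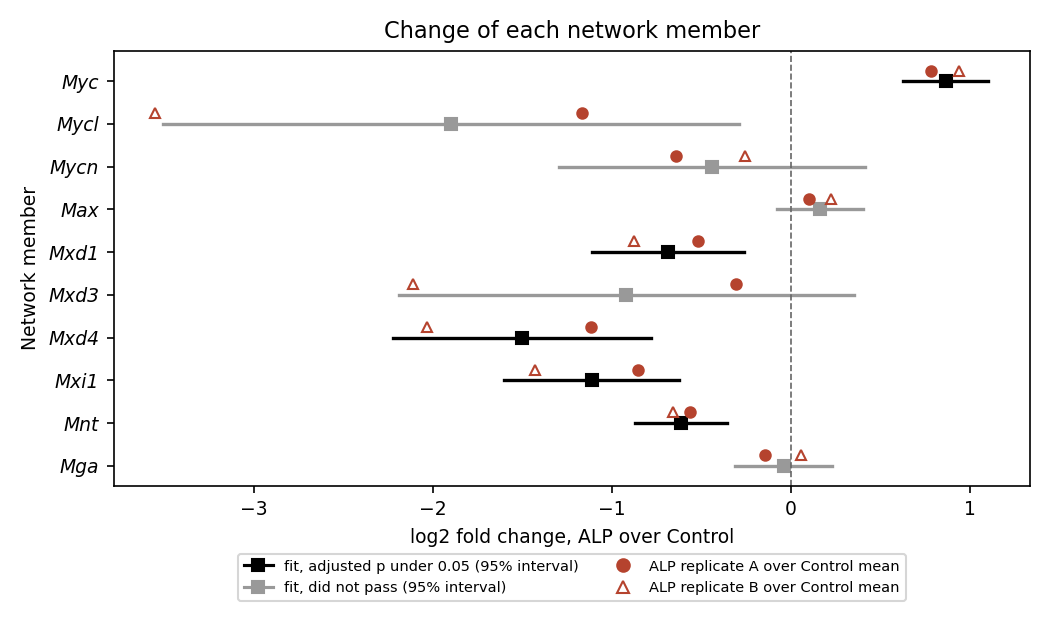
log2 fold change of each member, ALP over Control, from edgeR (squares, 95% interval as bars; black where the adjusted p was under 0.05) and the log2 CPM of each ALP library over the Control mean (points). Myc lies right of 0, Mxd1, Mxd4, Mxi1 and Mnt lie left of it, and ALP replicate B lies further left than ALP replicate A in all 5 MXD and MNT genes.

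Myc (ENSMUSG00000022346, GRCm38 chr15:61985391-61990374, plus strand) encodes the activator of the network that is most widely expressed in dividing cells. It was measured at 94.0 and 105 CPM in ALP libraries, against 55.2 and 53.9 CPM in Controls, from 1625 and 1618 counts in ALP and 974 and 943 counts in Controls. Both ALP libraries stood above both Controls, and each pair lay close together. The log2 fold change was 0.87 ± 0.10 (SE, n = 2 per group; adjusted p = 0.0149 by edgeR).

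The paralogs of Myc did not pass the test. Mycl (ENSMUSG00000028654, chr4:122995652-123002485, plus strand), first known from lung tumours, had 16.9 and 3.23 CPM in ALP libraries, against 40.1 and 35.6 CPM in Controls. Both ALP libraries were below both Controls, but they stood far apart, ALP replicate A at 44.6% and ALP replicate B at 8.54% of the Control mean. Its log2 fold change was -1.90 ± 0.65 (SE, n = 2 per group; adjusted p = 0.0722 by edgeR), with a 95% interval of -3.51 to -0.29. Leaving out ALP replicate A gave -3.55 and leaving out ALP replicate B gave -1.15, and both then passed the test, with the spread taken from the Control pair alone.

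Mycn (ENSMUSG00000037169, chr12:12936093-12941914, minus strand), a paralog best known from neural progenitors, was the least abundant member per length. It had 18 and 21 counts in ALP libraries, against 26 and 31 counts in Controls, or 1.04 and 1.36 CPM in ALP and 1.47 and 1.77 CPM in Controls. The groups did not overlap, yet they lay within a few counts of each other. The log2 fold change of -0.44 ± 0.34 (SE, n = 2 per group) had a 95% interval of -1.30 to 0.42 and an adjusted p = 0.359 by edgeR, and that decrease was not resolved at this depth.

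Max (ENSMUSG00000059436, chr12:76937269-76962201, minus strand) encodes the shared partner of the other members. It stood at 58.1 and 63.4 CPM in ALP libraries, against 55.3 and 53.0 CPM in Controls. Both ALP libraries were slightly above both Controls. A log2 fold change of 0.17 ± 0.10 (SE, n = 2 per group) did not pass the test (adjusted p = 0.228 by edgeR), and its 95% interval ran from -0.07 to 0.41.

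The E-box was found in 3 promoter windows of the network, those of the repressor genes Mxd4 and Mnt, which were lower in ALP, and that of Max, which did not pass the test. They are printed because the E-box is the site that the network's own proteins bind, with the E-box in capitals, 5′ to 3′ on the strand of the gene, from 250 bases before the RefSeq start to 50 bases from it on (RefSeq, GRCm38.p6). The Mxd4 window lies at chr5:34187661-34187960 on the minus strand, the Mnt window at chr11:74830674-74830973 on the plus strand and the Max window at chr12:76962199-76962498 on the minus strand.
Mxd4: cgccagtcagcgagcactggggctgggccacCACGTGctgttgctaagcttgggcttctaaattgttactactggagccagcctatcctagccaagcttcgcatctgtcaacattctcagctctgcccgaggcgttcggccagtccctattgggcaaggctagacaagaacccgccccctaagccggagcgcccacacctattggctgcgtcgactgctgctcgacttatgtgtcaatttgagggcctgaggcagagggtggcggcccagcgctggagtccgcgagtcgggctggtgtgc
Mnt: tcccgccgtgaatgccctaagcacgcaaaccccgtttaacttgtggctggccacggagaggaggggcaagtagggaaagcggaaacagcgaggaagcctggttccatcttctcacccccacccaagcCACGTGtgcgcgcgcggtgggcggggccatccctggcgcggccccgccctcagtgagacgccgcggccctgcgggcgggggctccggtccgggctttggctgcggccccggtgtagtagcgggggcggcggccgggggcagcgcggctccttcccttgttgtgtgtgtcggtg
Max: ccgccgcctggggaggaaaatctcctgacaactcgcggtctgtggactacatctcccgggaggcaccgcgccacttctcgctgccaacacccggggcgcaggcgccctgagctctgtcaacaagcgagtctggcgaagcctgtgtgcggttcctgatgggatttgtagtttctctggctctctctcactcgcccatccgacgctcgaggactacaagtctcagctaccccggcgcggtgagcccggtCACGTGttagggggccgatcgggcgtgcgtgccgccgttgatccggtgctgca
Counted from 1 at the first base of the transcript and -1 just before it, the E-box spans -219 to -214 in Mxd4, -123 to -118 in Mnt and -3 to 3 in Max. RefSeq windows were found for 9 of the 10 members (11 windows), all but Myc, and 3 of these genes held the E-box. Among all 27025 genes with a window 2187 (8.09%) held it, and among the 10049 tested genes with a window 1173 (11.7%).

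Mxi1 had 3 windows, and 1 of them held GTAAACA, a letter string of FOXO factors, which are described as activators of MXI1. It is printed with that string in capitals, 5′ to 3′ on the strand of the gene (RefSeq, GRCm38.p6), at chr19:53329445-53329744 on the plus strand, where it spans -231 to -225.
Mxi1: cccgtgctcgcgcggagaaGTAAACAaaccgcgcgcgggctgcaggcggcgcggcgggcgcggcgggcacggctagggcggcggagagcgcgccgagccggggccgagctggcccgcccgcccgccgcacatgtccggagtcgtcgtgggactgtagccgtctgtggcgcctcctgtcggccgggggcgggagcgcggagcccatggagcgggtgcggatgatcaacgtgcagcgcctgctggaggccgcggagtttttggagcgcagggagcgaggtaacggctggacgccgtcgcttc
Of all windows 3.65% held this string on either strand, and of tested genes 3.11%. The E2F strings TTTGGCGC or TTTCCCGC occurred in 1 member (Mycn, with 2 copies of TTTGGCGC) and in 3.41% of tested genes with a window. Neither the AP-1 string TGANTCA nor the TCF string CTTTGAT occurred in a window of those 9 members, beside 6.37% and 3.01% of tested genes. All strings were read on both strands, and none of them overlapped the E-boxes above. A match describes letters only and shows no binding.

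The MXD genes encode small repressors that take MAX from MYC. Mxd4 (ENSMUSG00000037235, chr5:34173883-34187720, minus strand) had 80.9 and 42.9 CPM in ALP libraries, against 186 and 165 CPM in Controls. Both ALP libraries were well below both Controls, ALP replicate A at 46.1% and ALP replicate B at 24.5% of the Control mean. The gene fell by 1.50 ± 0.29 in log2 units (SE, n = 2 per group; adjusted p = 0.0203 by edgeR), with 1398 and 664 counts in ALP and 3285 and 2883 counts in Controls.

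Mxi1 (ENSMUSG00000025025, chr19:53310506-53375810, plus strand), also named MXD2, encodes a repressor of the same structure. It had 37.4 and 25.1 CPM in ALP libraries, against 70.4 and 64.9 CPM in Controls. ALP replicate B was again the lower of the ALP libraries, at 37.2% of the Control mean against 55.3% in ALP replicate A, and neither reached the Controls. The gene fell by 1.11 ± 0.20 in log2 units (SE, n = 2 per group; adjusted p = 0.0175 by edgeR).

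Mxd1 (ENSMUSG00000001156, chr6:86647042-86669161, minus strand), the founding MXD gene, had 14.4 and 11.2 CPM in ALP libraries, against 19.8 and 21.5 CPM in Controls. Both ALP libraries lay below both Controls, at 69.8% and 54.5% of the Control mean. The gene fell by 0.68 ± 0.17 in log2 units (SE, n = 2 per group; adjusted p = 0.035 by edgeR). Mnt (ENSMUSG00000000282, chr11:74830920-74845725, plus strand) encodes a larger repressor that is made in most cells and opposes MYC throughout the cell cycle. It had 30.3 and 28.3 CPM in ALP libraries, against 44.0 and 45.5 CPM in Controls. Its libraries agreed closely within each group, and the gene fell by 0.61 ± 0.10 in log2 units (SE, n = 2 per group; adjusted p = 0.0164 by edgeR).

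Mxd3 (ENSMUSG00000021485, chr13:55325168-55329823, minus strand), the MXD gene linked to dividing cells in S phase, was the repressor that did not pass. It had 4.74 and 1.36 CPM in ALP libraries, against 5.95 and 5.77 CPM in Controls. ALP replicate A lay near the Controls, at 81.0% of their mean, and ALP replicate B far below, at 23.2%. The log2 fold change was -0.92 ± 0.51 (SE, n = 2 per group; adjusted p = 0.21 by edgeR), with -2.11 when ALP replicate A was left out, which then passed, and -0.29 when ALP replicate B was. A stretch of 105 exon bases (4.43% of the gene) overlaps Prelid1 on the opposite strand, which had 27389 counts over the 4 libraries against 309 for Mxd3, and reads from that stretch cannot be assigned to 1 gene, since the strandedness of the libraries was not given.

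The ALP libraries were not alike in the repressors, nor in most other members. Of the 10 members 8 lay further from the Control mean in ALP replicate B than in ALP replicate A, Myc and Mycl among them. All 5 MXD and MNT genes were lower in ALP replicate B than in ALP replicate A, though Mnt only slightly (30.3 CPM in A and 28.3 in B). The ALP libraries also differed across the whole table, and the share of all tested genes lower in ALP replicate B was not counted. Markers of suprabasal and granular keratinocytes, the differentiated layers in which Mxd1 is known to be made, were as a sum also lower in ALP replicate B. Their summed level over 12 genes was 1021 CPM in ALP replicate A and 77.2 CPM in ALP replicate B, against 3827 and 3168 CPM in Controls. Of these genes 5 were lower and 1 higher in ALP. The part of these markers in the result was not tested, and in bulk RNA fewer cells of a type and less RNA per cell cannot be told apart.

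Mga (ENSMUSG00000033943, chr2:119897228-119969581, plus strand) encodes a large protein that carries a T-box beside its MAX-binding domain. It had 111 and 127 CPM in ALP libraries, against 129 and 116 CPM in Controls. It was the member in which the groups overlapped. It had a log2 fold change of -0.04 ± 0.11 (SE, n = 2 per group; adjusted p = 0.802 by edgeR), with a 95% interval of -0.31 to 0.23, and it was 0.051 without ALP replicate A and 0.033 without Control replicate A.

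**Figure D2:**
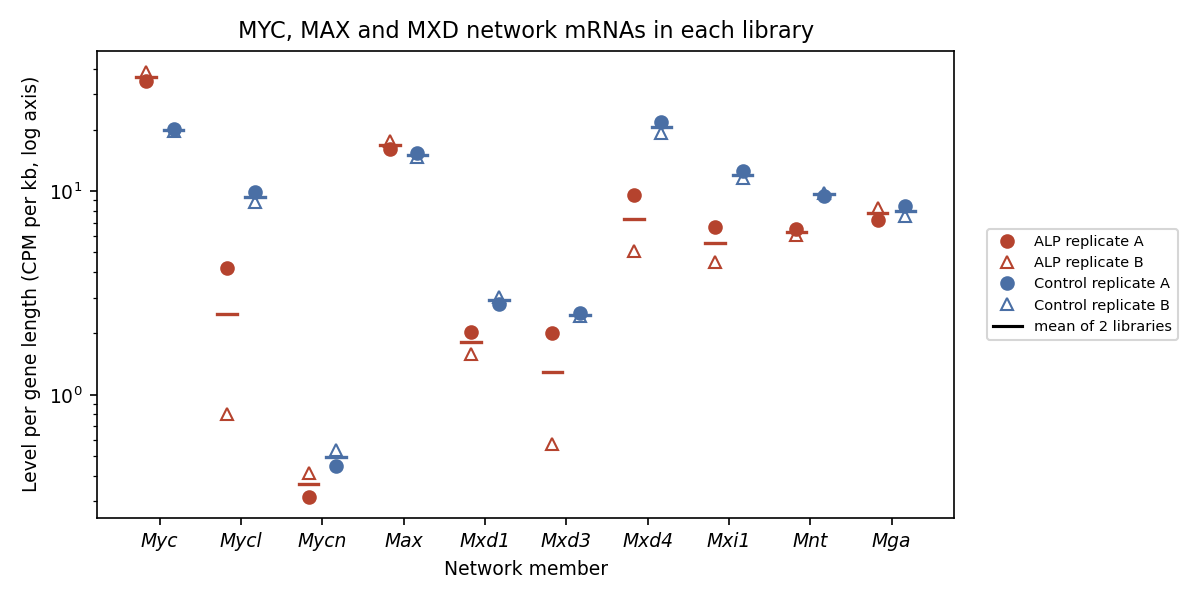
Level per gene length of each member in each library (CPM per kilobase, log axis), with ALP left of Control and the mean of 2 libraries as a line. Myc leads in ALP libraries at 34.6 and 38.5 CPM per kilobase, while in Controls Mxd4 and Myc lie together with means of 20.7 and 20.1, and the ALP libraries are widest apart in Mycl, Mxd3 and Mxd4.

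Levels were compared between genes per length, as CPM per kilobase of the gene length in the table. In ALP libraries Myc came first at 36.6 ± 2.75 CPM per kilobase (mean ± SD, n = 2), followed by Max at 16.9 ± 1.04. Mga (7.77 ± 0.75 CPM per kilobase), Mxd4 (7.30 ± 3.16), Mnt (6.33 ± 0.30) and Mxi1 (5.57 ± 1.55) came next, and neighbours among these 4 overlapped in their libraries. Mycl (2.49 ± 2.39 CPM per kilobase), Mxd1 (1.81 ± 0.32) and Mxd3 (1.29 ± 1.01) also overlapped as neighbours, and Mycn was last at 0.36 ± 0.07. In Control libraries Mxd4 (20.7 ± 1.78 CPM per kilobase) and Myc (20.1 ± 0.34) shared the top with overlapping libraries, followed by Max (15.1 ± 0.46), Mxi1 (12.04 ± 0.70), Mnt (9.67 ± 0.22) and Mycl (9.37 ± 0.79). Mnt and Mycl overlapped, whereas Mga (7.99 ± 0.63 CPM per kilobase), Mxd1 (2.92 ± 0.17), Mxd3 (2.47 ± 0.05) and Mycn (0.49 ± 0.06) followed without overlap. Thus Mxd4 stood level with Myc in Controls, and in ALP libraries below Max and beside Mga.

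Summed over the family, the 3 MYC genes reached 39.1 and 39.7 CPM per kilobase in ALP libraries, against 30.7 and 29.2 in Controls. The 5 MXD and MNT genes summed to 26.8 and 17.8 CPM per kilobase in ALP libraries, against 49.3 and 46.3 in Controls. Per kilobase, the activator sum therefore exceeded the repressor sum in both ALP libraries and was the smaller sum in both Controls. Which sum is the larger depends on the gene lengths used, such as 2717 bases for Myc and 8483 for Mxd4. The lengths of the transcripts made in these cells were not measured. The ratio of the sums was 1.46 and 2.23 in ALP libraries, against 0.622 and 0.631 in Controls, a difference of 1.53 in mean log2 ratio. An exact permutation test of the log2 ratio gave p = 0.333 (two-sided), the smallest that 2 against 2 libraries allow. The ratio of Myc to Mxd4 alone was 3.63 and 7.61 in ALP libraries, against 0.926 and 1.02 in Controls.

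The make-up of each sum differed as well. Myc gave 88.5% and 96.9% of MYC family mRNA in ALP libraries, against 66.2% and 68.0% in Controls. Mxd4 gave 35.6% and 28.4% of MXD and MNT mRNA in ALP libraries, against 44.5% and 42.0% in Controls, and Mnt 24.4% and 34.3% in ALP libraries, against 19.3% and 21.2% in Controls. All partners of MAX together, Mga included, summed to 73.1 and 65.8 CPM per kilobase in ALP libraries, against 88.4 and 83.0 in Controls. Set against Max mRNA this was a ratio of 4.52 and 3.73 in ALP libraries and 5.75 and 5.63 in Controls. These are mRNA levels, and protein was not measured.

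**Figure D3:**
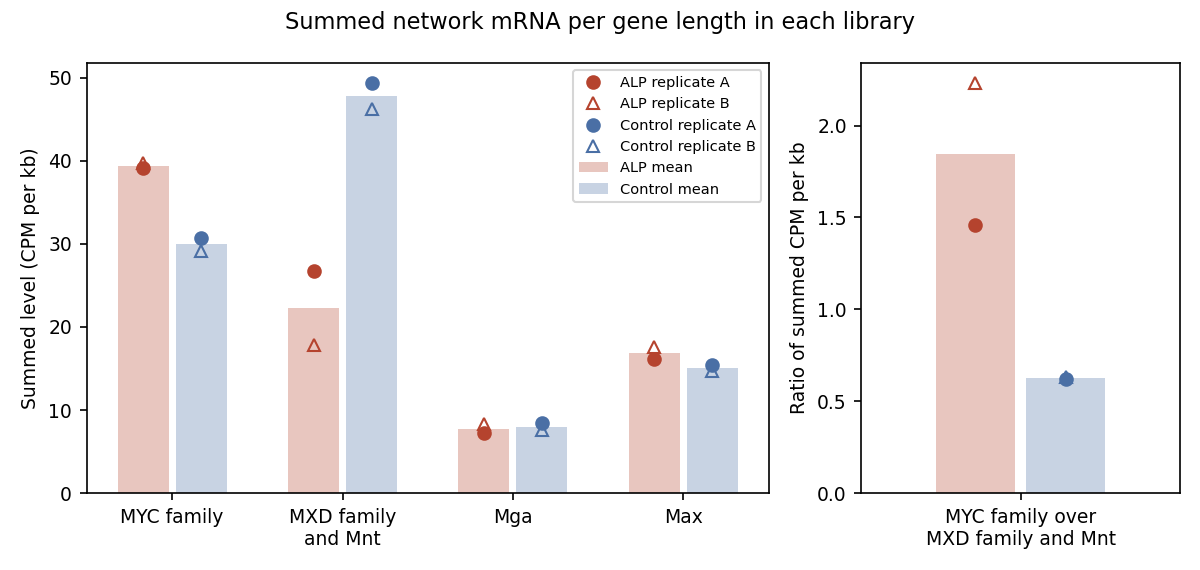
Summed CPM per kilobase of the MYC family (Myc, Mycn, Mycl), of the MXD family and Mnt, and of Mga and Max (left), and the ratio of the first to the second sum (right), with 1 point per library and bars at the mean of 2 libraries. The ratio is 1.46 and 2.23 in ALP libraries and 0.622 and 0.631 in Controls.

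The genes around the network were described by 11 lists of 169 genes, none in more than 1 list. Of the 151 tested, 66 were higher and 14 lower in ALP by edgeR (adjusted p under 0.05), beside 18.0% and 12.9% of all tested genes. These calls were lost when either Control library was left out. The lists were chosen with earlier results of these data known, and their counts are a description. Among 14 genes of polyamine, nucleotide and one-carbon metabolism described as activated by MYC, 9 were higher and 1 lower, with a median log2 fold change of 0.84, beside 18.0% higher and a median of -0.00 over all tested genes. Cad, which encodes the enzyme that starts pyrimidine synthesis, had 321 and 405 CPM in ALP libraries, against 112 and 131 CPM in Controls, and rose by 1.58 ± 0.15 in log2 units (SE, n = 2 per group; adjusted p = 0.0149). Ppat, the entry enzyme of purine synthesis, rose by 1.39 ± 0.14 and Mthfd1, of folate metabolism, by 0.80 ± 0.09. Odc1, the ornithine decarboxylase gene and a classical MYC target, had 476 and 710 CPM in ALP libraries, against 187 and 192 CPM in Controls. Odc1 rose by 1.65 ± 0.19, and it was not among the list genes with an E-box in the promoter windows searched below. Shmt1, of the cytosolic folate cycle, fell by 0.42 ± 0.11. The libraries of Cad and Odc1 did not overlap between groups, and ALP replicate B was the higher ALP library in both.

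Of 14 nucleolar genes, which serve ribosome assembly, 13 were higher and none lower, with a median log2 fold change of 0.89. Over all tested genes 18.0% were higher and 12.9% lower. The box C/D RNA-binding genes Nop56 and Nop58 rose by 1.04 ± 0.12 and 1.15 ± 0.15 in log2 units (SE, n = 2 per group), and Polr1b, a subunit gene of RNA polymerase I, by 0.89 ± 0.10, each with an adjusted p = 0.0149 by edgeR. Ubtf, the activator of that polymerase, did not pass, with 156 and 157 CPM in ALP libraries and 144 and 148 CPM in Controls. Of 20 genes of growth, translation and the cell cycle, 13 were higher and none lower, with a median of 0.61, beside the same shares. Tfrc, the transferrin receptor gene, had 162 and 204 CPM in ALP libraries, against 50.2 and 57.0 CPM in Controls, Cdc25a, a phosphatase that opens the way into S phase, rose by 0.96 ± 0.12, and Hspd1, a mitochondrial chaperone gene, had 653 and 813 CPM in ALP libraries, against 357 and 375 CPM in Controls. Ldha, of glycolysis, and Slc7a5, an amino acid carrier, did not pass, at log2 fold changes of -0.05 and -0.01. The handling of multi-mapping reads was not given in the sources used here, and levels of genes with processed pseudogenes, such as Npm1 and Hspd1, are uncertain.

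The 13 genes described as repressed by MYC did not move one way, with 4 higher, 3 lower and a median of 0.15. Of all tested genes 18.0% were higher and 12.9% lower. Those that rose were the integrin genes Itgb4 (1.14 ± 0.15 on the log2 scale), Itgb1 (0.85 ± 0.14) and Itga6 (0.38 ± 0.10), which hold basal keratinocytes to their matrix, and Thbs1 (1.54 ± 0.22), the thrombospondin-1 gene. Cdkn1b, the gene of the cell cycle inhibitor p27, fell by 1.14 ± 0.25, Ndrg2, of the NDRG family, fell by 1.28 ± 0.32 and Cebpa, a factor of differentiation, fell by 1.45 ± 0.39 in log2 units (all SE, n = 2 per group). Cdkn1b had 60.8 and 35.7 CPM in ALP libraries, against 115 and 98.1 CPM in Controls, and Cebpa 56.5 and 23.3 CPM in ALP libraries, against 111 and 108 CPM in Controls. As in the MXD genes, ALP replicate B was the lowest library in both. Cdkn1a, the p21 gene that MYC represses through MIZ1, did not pass, with 305 and 354 CPM in ALP libraries and 282 and 291 CPM in Controls.

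Genes that act with or on MYC were then examined. Of 18 coactivators and MIZ1, 6 were higher and none lower (median 0.18). In either direction these are 33.3% of the list, near the 30.9% of all tested genes called. The 6 higher genes are 33.3% of the list, beside 18.0% of all tested genes. Of all called genes 58.3% were higher. With upper quartile scaling, library size alone or DESeq2 the number higher in this list was 5. Among the 6 were the helicase genes Ruvbl1 (1.14 ± 0.16 in log2 units; SE, n = 2 per group) and Ruvbl2 (0.84 ± 0.13) and Wdr5 (0.65 ± 0.10), whose product anchors MYC to chromatin. Zbtb17, the MIZ1 gene, had 33.6 and 27.7 CPM in ALP libraries and 31.6 and 36.3 CPM in Controls and did not pass. Of 19 genes of MYC protein turnover, 8 were higher and 1 lower (median 0.19), beside 18.0% and 12.9% of all tested genes. The number higher was 6 with RLE size factors, upper quartile scaling, library size alone or a filter at 1 CPM. It was 7 by DESeq2 and by edgeR's legacy mode. Set, an inhibitor of the phosphatase PP2A, rose by 0.66 ± 0.09, Aurka, a kinase that shields MYCN from degradation, by 0.75 ± 0.11, and Skp2, a ubiquitin ligase subunit for MYC and p27, by 1.24 ± 0.18. Usp28, a deubiquitinase of MYC, fell by 0.81 ± 0.23, near the threshold (adjusted p = 0.0489 by edgeR). Fbxw7, the ligase subunit that it opposes, did not pass (-0.16 ± 0.10).

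Of 16 regulators of the Myc gene and its mRNA, 6 were higher and 1 lower (median 0.30), beside 18.0% and 12.9% of all tested genes. The number lower was 3 by both DESeq2 and limma-voom. Cnbp, which binds the Myc promoter, rose by 0.58 ± 0.10, Elavl1, which encodes the mRNA-stabilizing protein HuR, by 0.54 ± 0.10 and E2f1 by 0.61 ± 0.12 in log2 units (SE, n = 2 per group). Pvt1, the long non-coding RNA gene next to Myc on chromosome 15, had 33 and 26 counts in ALP libraries, against 14 and 9 counts in Controls, and rose by 1.45 ± 0.38 (adjusted p = 0.0403 by edgeR). Klf4, a keratinocyte factor described as a brake on Myc, did not pass, with 82.8 and 78.2 CPM in ALP libraries and 91.8 and 88.0 CPM in Controls.

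On the repressor side, 3 of 17 SIN3 complex subunits were higher and 3 lower, with a median of 0.00. The 35.3% called are near the 30.9% of all tested genes, and without ALP replicate A 5 were higher and 4 lower. Arid4b fell by 0.71 ± 0.11, while Rbbp7 and Sap130 rose by 0.44 ± 0.08 and 0.43 ± 0.08 in log2 units (SE, n = 2 per group). The scaffold genes Sin3a and Sin3b, at -0.08 ± 0.09 and -0.07 ± 0.08, and the deacetylase genes Hdac1 and Hdac2, at -0.11 ± 0.09 and 0.06 ± 0.08, did not pass. Of 9 PRC1.6 subunits beside MGA and MAX, 4 were higher and none lower (median 0.33), against 18.0% and 12.9% of all tested genes. Tfdp1 and E2f6, whose products form the E2F module of the complex, rose by 0.60 ± 0.10 and 0.74 ± 0.15, and Rybp by 0.49 ± 0.11.

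Of 18 germline genes kept silent by PRC1.6, 16 were below the filter on low counts, 5 of them with 0 counts in every library, which allows up to 0.172 to 0.190 CPM. The highest count among these 16 was 20, for the meiotic cohesin gene Smc1b in ALP replicate B, with 0 counts in ALP replicate A and 3 and 2 counts in Controls. The 2 that were tested were lower in ALP by edgeR. Brdt, a bromodomain gene of the testis, had 13 and 4 counts in ALP libraries, against 38 and 29 counts in Controls, with an adjusted p = 0.0419 by edgeR and 0.0651 by DESeq2. Its 4 counts in ALP replicate B were below the filter's count of 10, so Brdt needed the Controls to be tested. The filter thus favoured a lower direction for Brdt. Zcwpw1, a reader of meiotic histone marks, had 15 and 10 counts in ALP libraries, against 32 and 37 counts in Controls, with an adjusted p = 0.0397 by edgeR and 0.125 by DESeq2. Neither passed without ALP replicate B (adjusted p by edgeR of 0.0615 for Brdt and 0.0831 for Zcwpw1), and without ALP replicate A 1 gene of the list was higher and 2 were lower.

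Of 11 genes of the MLX branch and other E-box factors of the same protein class, 9 were tested, of which none was higher and 3 were lower (median -0.08). In either direction the 33.3% called are near the 30.9% of all tested genes. The 3 lower genes are 33.3% of those tested in the list, beside 12.9% of all tested genes. Without ALP replicate A 1 was higher and 5 were lower, and without ALP replicate B 1 was higher and 3 were lower. Mitf, the melanocyte factor, had 4.86 and 4.14 CPM in ALP libraries, against 11.3 and 10.5 CPM in Controls, and fell by 1.27 ± 0.19 in log2 units (SE, n = 2 per group; adjusted p = 0.0151 by edgeR). The lysosomal factor gene Tfeb fell by 0.98 ± 0.21 and Usf1 by 0.48 ± 0.10. Mlx, which like Max serves as a shared partner, did not pass, at 27.1 and 29.5 CPM in ALP libraries and 25.9 and 25.2 CPM in Controls.

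**Figure D4:**
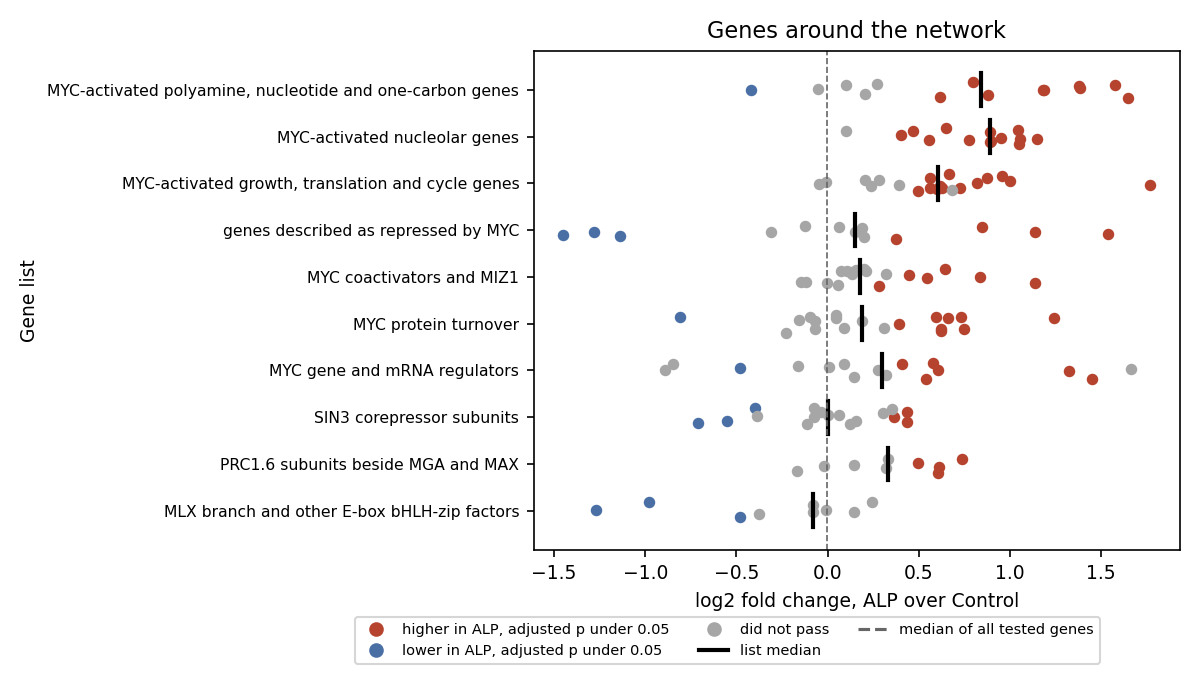
log2 fold change, ALP over Control, of the tested genes of 10 lists around the network, with 1 point per gene (red higher, blue lower in ALP at an adjusted p under 0.05, grey did not pass), a bar at each list's median and a dashed line at the median of all tested genes; the germline list is left out because only 2 of its genes were tested. The medians of the polyamine and nucleotide, nucleolar and growth lists are 0.84, 0.89 and 0.61, and that of the SIN3 subunits is 0.00.

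The E-box of the Mxd4, Mnt and Max windows was also counted in the promoters of the lists. It was found in 8 of 16 genes with a window in the growth, translation and cycle list, in 2 of 13 polyamine and nucleotide genes (15.4%), in 2 of 10 nucleolar genes and in none of 7 genes described as repressed by MYC, beside 11.7% of tested genes. Among germline genes, most of them not tested, 9 of 17 held it (52.9%), beside 8.09% of all genes with a window. The stretches around it are shown for the 7 list genes named above that hold it, 10 bases on either side with the E-box in capitals (RefSeq, GRCm38.p6), at chr1:55088308-55088333 on the minus strand for Hspd1, chr2:30061852-30061877 on the plus strand for Set, chr8:13338510-13338535 on the plus strand for Tfdp1, chr5:107331106-107331131 on the plus strand for Brdt, chr7:46845649-46845674 and chr7:46845746-46845771 on the plus strand for Ldha, chr4:55532642-55532667 on the minus strand for Klf4 and chr11:101087240-101087265 on the plus strand for Mlx.
Hspd1: ccggctgggaCACGTGaaaaggccgc
Set: cacaggcttcCACGTGcaacccgggg
Tfdp1: ggcgcgcacaCACGTGgcctctctcc
Brdt: caggcacagtCACGTGgcagaccctg
Ldha, first E-box: tgtcgcagcaCACGTGgagccactct
Ldha, other E-box: gcccagcctaCACGTGggttcccgca
Klf4: cccccgccccCACGTGcgcggagttt
Mlx: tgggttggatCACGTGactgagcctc
Hspd1, Set and Tfdp1 were higher in ALP libraries, Brdt was lower, and Ldha, Klf4 and Mlx did not pass. Other list genes that held the E-box and were higher were Nme1, Wdr43, Pes1, Eif4e, Phb, Eif4a1, Eif5a and Cdk4, and Brdt alone was lower. Impdh2, Apex1, Kat5, Stub1, Igf2bp3 and Rbbp4 held it and did not pass, and the remaining holders were not tested for a change. The lists as a whole had 66 higher and 14 lower genes, and a link of the E-box with direction was not tested.

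Genes with the pattern most like that of a member were sought among protein-coding tested genes of similar level, by the Euclidean distance of centred log2 CPM over the 4 libraries. For Myc, of 4042 candidates, these were Acvr1 (distance 0.037), Srprb (0.050) and Srsf7 (0.059). Acvr1, which encodes a BMP type I receptor, had 78.7 and 84.6 CPM in ALP libraries, against 45.8 and 44.4 CPM in Controls. For Mnt, the member with the smallest p after Myc, they were Osbpl2 (0.029), Oaz2 (0.036) and Ndufa3 (0.037) of 4452 candidates.

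In the authors' deposited table the log2 fold changes of the members were nearly the same as those fitted here, with smaller adjusted p-values for the 5 called members and larger ones for the other 5. The authors' deposited table gives Myc 0.87 with an adjusted p of 2.51e-07, Mxd4 -1.50 with 2.85e-07, Mxi1 -1.11 with 6.88e-06, Mnt -0.61 with 0.00232 and Mxd1 -0.68 with 0.0197. There, in the authors' deposited table, Mycl (-1.91, 0.154), Mxd3 (-0.94, 0.218), Mycn (-0.43, 0.681), Max (0.17, 0.447) and Mga (-0.04, 0.894) did not reach an adjusted p under 0.05. The authors' deposited table rests on the same 4 libraries and adds no separate evidence.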

How the data were processed

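Total RNA of EpSC cultures was sequenced. The submitters' processing notes name HISAT2 2.0.5, featureCounts 1.5.0-p3 and the human build GRCh38. The gene identifiers are those of mouse: 99.9% occur in GENCODE M21, 98.3% of these at the same coordinates, which are therefore given as GRCm38. Library kit, strandedness and multi-mapping were not given in the sources used here. In 1 table the authors deposited a raw count per gene and library, gene lengths, a mean normalized signal per group and a log2 fold change with its p-value, by a test not given in the sources used here. A further 4 per-library columns were not used, and levels per length, planned on any length-scaled values of the table, were computed as TMM-scaled CPM per kilobase. Replicate numbers of the columns and of the labels do not match, and each column was assigned to a group only. For 27 date-like symbols the name was restored by identifier.

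Counts were fitted across all genes in R 4.3.3 with edgeR 4.0.16 (glmQLFit, glmQLFTest, group alone, two-sided, TMM, filterByExpr at count 10 and total 15) and p-values adjusted by Benjamini-Hochberg over the 14056 tested genes. The fit had 2 residual and a median of 3.6 prior degrees of freedom. SE is the log2 fold change over the square root of the F statistic, and intervals are 95% intervals. Reads carry no molecular identifiers, and a limit drawn from 3 counts (0.172 to 0.190 CPM) covers counting error only. Alternatives were other scalings and filters, DESeq2 1.42.0, limma-voom (limma 3.58.1), leaving out each library, and edgeR's legacy mode, added after seeing the data. The fit was tested on simulated counts, with 200 changed genes and the same dispersion for every gene and group. In the data the ALP pair differed more than the Control pair (chi-square per degree of freedom 22.4 against 5.92). That unequal spread was not simulated.

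The members and lists were chosen with earlier results of these data known, as were the suprabasal markers. Named genes were all 10 members, the 3 genes of each list with the smallest p, and the 3 genes most like Myc and most like the member with the next smallest p. Other list genes were named after their values were seen. Promoter windows came from RefSeq.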

Additional observations from a re-analysis of the deposited data

How the results depend on the processing

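No paired analysis was possible because the groups' columns share only 1 replicate number. The 5 members called were also called with RLE size factors, upper quartile scaling, library size alone, a filter at 1 CPM in at least 2 libraries, edgeR's legacy mode and DESeq2, and limma-voom called 6, with Mycl added (adjusted p = 0.0309). Without the filter on low counts edgeR called 0 of 25280 genes (lowest adjusted p = 0.0524, 7068 genes at an unadjusted p under 0.05), hence 0 members and 0 genes of the lists. Leaving out 1 library, the number of genes called ranged from 0 to 7518, members from 0 to 7 and list genes from 0 to 102. The counts of 0 came without Control replicate A or B, where the spread comes from the ALP pair and a single Control is assumed to vary like it, and where 3380 and 4131 genes had an unadjusted p under 0.05. The highest came without ALP replicate A, with Mycl and Mxd3 added to the members, and without ALP replicate B 6 members were called. The log2 fold change of Mga ranged from -0.13 to 0.051 with a library left out, and was above 0 without ALP replicate A (0.051) and without Control replicate A (0.033). The difference in log2 ratio of the MYC to the MXD and MNT sum was 1.22 to 1.83 with a library left out, 1.30 with Mga among the repressors, 1.70 without Mnt and 1.52 with a pseudocount of 0.1 CPM per kilobase. Depth limits Mycn, at 18 to 31 counts, and Mxd3, at 21 counts in ALP replicate B.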
